A study of Mus musculus with 15 samples.

Results

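The expression of 8 genes was followed across a mouse model of acute myeloid leukemia with different forms or doses of the repressor GFI1: Prdm16, Ikzf2, Rbm44, Fam71b, Msi1, Postn, Hebp1 and Eml5. They were chosen by their deposited values, near 0 in untreated 36S or 36N marrow and high in KD marrow, and they are 8 of the 18075 genes in the tables of untreated libraries. RNA was sequenced from total bone marrow of leukemic C57BL/6 mice. Donor cells depleted of mature lineages had been transduced with a retrovirus carrying the oncogene MLL-AF9 and GFP, GFP-positive cells had been transplanted into irradiated mice, and marrow of quaternary recipients was used after serial transplantation. All groups share that oncogene and a human GFI1 gene at the mouse Gfi1 locus, and total marrow can also hold cells of the recipient mice. KD mice (libraries 7 to 9, n = 3) express this human gene at 10 to 20%, 36N mice (libraries 4 to 6, n = 3) express its 36N variant, and 36S mice (libraries 1 to 3, n = 3) are homozygous for the knocked-in human gene. Further libraries came from 36N cells (4 to 6) and 36S cells (1 to 3) treated with the alkylating drug temozolomide (TMZ, 50 µg/ml) starting 20 h ahead of RNA extraction, which makes 15 libraries in 5 groups. Titles carry a number behind MLL_AF9 that is 1 for every KD and every 36N library and runs from 1 to 3 for the 36S libraries. Whether libraries of a group share a primary leukemia is not given in the sources used here, so genotype and primary leukemia cannot be told apart, and p-values measure only the spread between these samples. The age and sex of the mice are likewise not given.

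GFI1 is a zinc finger protein that binds DNA at sites with an AATC core and lowers transcription of its targets by recruiting histone-modifying enzymes. In blood it restrains the cycling of stem cells and favours granulocytes over monocytes, and a low level of it is linked to poor outcome in human acute myeloid leukemia. Prdm16 and Ikzf2 encode transcription factors of blood stem cells. The other genes encode RNA-binding proteins better known from neural stem cells and germ cells, a matrix protein, a heme-binding protein, a microtubule-associated protein and a protein named for its sequence family.

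The values are normalised counts per gene, deposited in 4 tables, with column totals, in units of 1e6, of 11.3 to 13 in the untreated libraries, 15.7 to 18.3 in the table of 36N with and without TMZ and 22.3 to 24.3 in the table of 36N and 36S with TMZ. The read depth behind them is unknown, and values below a few normalised counts are not told apart from 0 here. The same untreated 36N libraries stand in 2 of these tables on scales that differ from gene to gene by a constant factor. That factor was 2.72 for Prdm16, 2.57 for Ikzf2 and 0.98 for Eml5, so levels were set side by side only within a table. Gfi1 itself was present only in the table of 36N with and without TMZ, at 723, 504 and 555 in 36N cells with TMZ, against 505, 565 and 367 in untreated 36N cells, and its level in KD and 36S marrow was not analysed here. Reads of the mouse gene do not check labels that concern a human gene.

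Only 2 of the 8 genes share a chromosome: Ikzf2 (chr1:69531214-69687245, minus strand) and Rbm44 (chr1:91145089-91170795, plus strand) are on chromosome 1. The others, in mm10 with the GENCODE M21 annotation, are Postn (chr3:54361109-54391037, plus strand), Prdm16 (chr4:154316125-154636873, minus strand), Msi1 (chr5:115429599-115455698, plus strand), Hebp1 (chr6:135137522-135198022, minus strand), Fam71b (chr11:46396559-46407982, plus strand) and Eml5 (chr12:98786805-98901484, minus strand). RefSeq promoters of GRCm38.p6, which run from 250 bases before to 50 bases after a start site, were at hand for 5 of the genes. They are shown because all 5 genes were higher in every KD library than in any other untreated library, for Postn at the start of the gene model only, with every AATC, the core of the GFI1 site, in capitals on either strand (GATT where it lies on the opposite strand).
Prdm16, chr4:154636824-154637123, minus strand: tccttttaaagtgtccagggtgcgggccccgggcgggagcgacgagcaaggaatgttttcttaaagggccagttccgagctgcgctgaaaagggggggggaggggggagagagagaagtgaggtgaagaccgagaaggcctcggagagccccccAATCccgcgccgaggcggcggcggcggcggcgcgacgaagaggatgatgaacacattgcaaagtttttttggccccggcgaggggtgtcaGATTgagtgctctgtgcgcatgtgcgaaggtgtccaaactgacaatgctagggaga
Fam71b, chr11:46404478-46404777, plus strand: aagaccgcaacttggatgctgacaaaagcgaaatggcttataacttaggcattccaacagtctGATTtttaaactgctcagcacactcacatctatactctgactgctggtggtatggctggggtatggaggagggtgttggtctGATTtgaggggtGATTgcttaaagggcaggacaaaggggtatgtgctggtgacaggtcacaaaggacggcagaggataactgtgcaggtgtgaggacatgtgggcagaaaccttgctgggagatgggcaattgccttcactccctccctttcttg
Postn, chr3:54360857-54361156, plus strand: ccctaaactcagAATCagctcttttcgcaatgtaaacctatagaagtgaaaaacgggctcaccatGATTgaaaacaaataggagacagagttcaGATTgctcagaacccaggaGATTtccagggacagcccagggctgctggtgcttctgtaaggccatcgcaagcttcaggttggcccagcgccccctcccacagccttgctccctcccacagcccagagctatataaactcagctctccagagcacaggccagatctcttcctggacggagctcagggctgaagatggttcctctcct
Hebp1, chr6:135168166-135168465, minus strand: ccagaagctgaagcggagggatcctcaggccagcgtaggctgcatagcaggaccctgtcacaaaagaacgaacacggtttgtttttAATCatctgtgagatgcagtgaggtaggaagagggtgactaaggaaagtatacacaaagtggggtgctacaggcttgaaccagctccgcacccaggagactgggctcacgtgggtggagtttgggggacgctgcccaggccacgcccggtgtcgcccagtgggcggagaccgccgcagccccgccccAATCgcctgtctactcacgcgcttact
Eml5, chr12:98901435-98901734, minus strand: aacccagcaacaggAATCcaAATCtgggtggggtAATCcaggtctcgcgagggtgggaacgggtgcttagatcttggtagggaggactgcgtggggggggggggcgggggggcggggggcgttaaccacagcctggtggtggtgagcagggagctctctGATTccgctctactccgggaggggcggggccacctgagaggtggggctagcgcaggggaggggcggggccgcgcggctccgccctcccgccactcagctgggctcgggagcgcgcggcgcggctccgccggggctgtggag
All 6 listed promoters of the 5 genes held AATC, with 2 to 4 matches each, and so did 73.1% of the 32851 mouse promoters in the same table. A longer form of the site, AATCNNNGC, was in 0 of the 6 and in 10.3% of all promoters. TATAAA was found in the Postn promoter shown above and in 13.6% of all promoters, on either strand. The printed sequences differ in base composition, with a GC content of 61.0% for Prdm16, 49.7% for Fam71b, 53.0% for Postn, 59.3% for Hebp1 and 71.7% for Eml5, against a median of 52.7% over all promoters. The start sites used for Fam71b and Hebp1 lie inside the longer gene models whose coordinates are given above.

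In untreated marrow every one of the 8 genes was higher in all 3 KD libraries than in any 36N or 36S library. The KD values chose the genes, so these levels are a description and carry no test. All libraries of KD stood above all of 36S for 15.7% of the 13109 genes that passed the filter (at least 10 normalised counts in at least 3 libraries) and above all of 36N for 12% of 13118 genes. Differences below are on the log2(normalised count + 1) scale, which understates the change of genes near 0. The median difference of the 8 genes was 5.74 for KD minus 36S and 5.00 for KD minus 36N, while the median over all genes that passed the filter was -0.01 in both. Over all genes, limma-trend called 866 higher and 637 lower against 36S and 266 higher and 159 lower against 36N. With columns scaled to equal totals the medians became -0.13 in both, and the calls were 605 higher and 936 lower against 36S and 176 higher and 179 lower against 36N. In total bone marrow a larger share of cells that express a gene and more RNA of it per cell cannot be told apart. Both comparisons share the KD libraries.

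**Figure D1:**
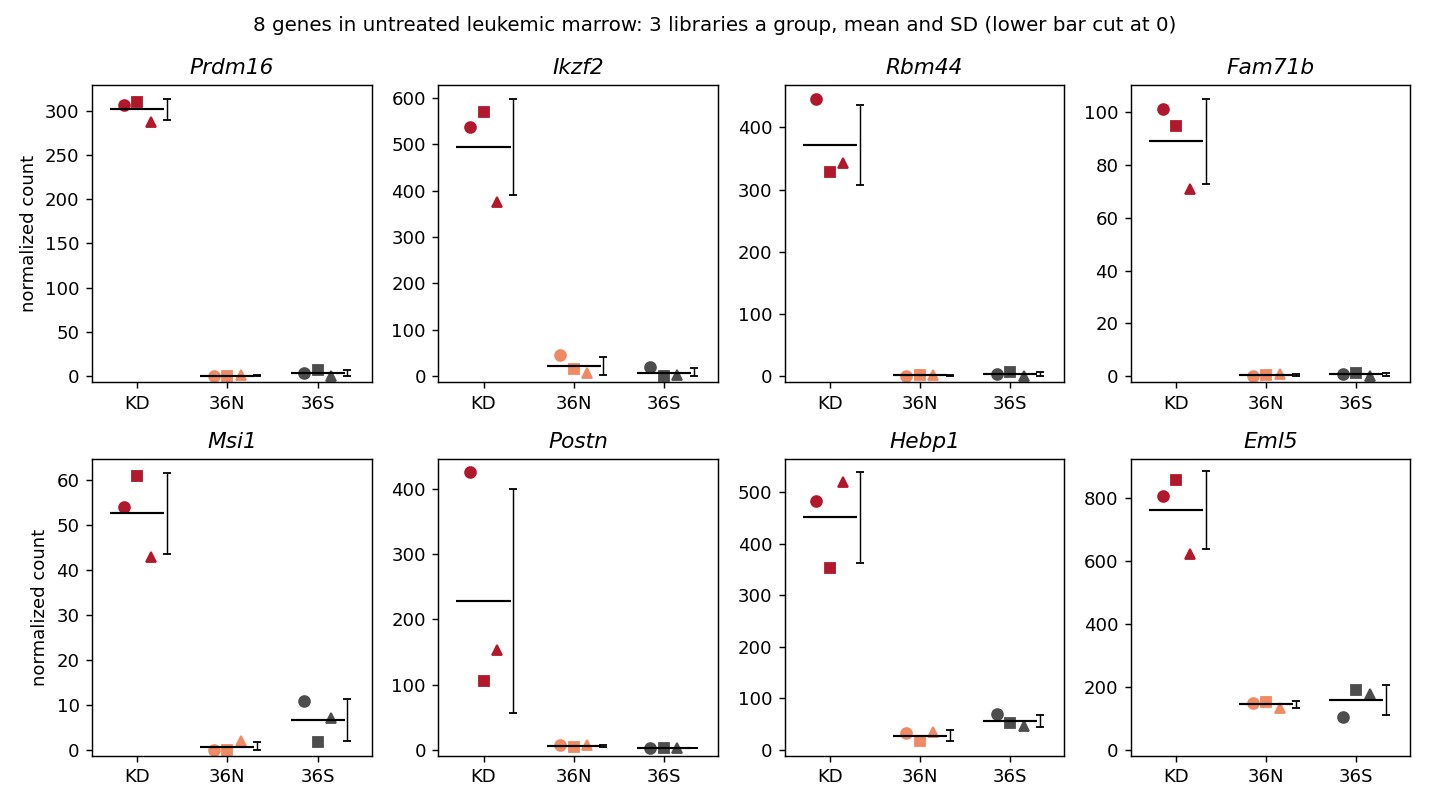
Normalised counts (vertical axes, linear from 0) of the 8 genes in untreated KD, 36N and 36S marrow, with 1 point per library (circle, square and triangle for the 3 libraries of a group in order of their number), a line at the mean and a bar for the SD. All 3 KD points lie above all 36N and 36S points in every panel, and Hebp1 and Eml5 keep a level above 0 in 36N and 36S.

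Prdm16, a zinc finger protein with a PR domain that helps maintain blood stem cells and directs brown fat development, had 307, 310 and 288 normalised counts in KD libraries 7, 8 and 9. It had 0.348, 0 and 1.44 in the 36N libraries and 3.64, 7.26 and 0 in the 36S libraries. The KD libraries were close to one another, and the 36N and 36S groups overlapped near 0. The difference was 6.49 for KD minus 36S and 7.67 for KD minus 36N. Ikzf2 encodes Helios, an Ikaros family zinc finger protein found in regulatory T cells and in blood stem cells, which in mouse MLL-AF9 leukemia helps to maintain self-renewal. It had 536, 570 and 375 normalised counts in KD libraries, 44.6, 15.4 and 6.36 in 36N libraries and 18.8, 0.441 and 2.67 in 36S libraries. It was thus not near 0 in every reference library, with 36N library 4 and 36S library 1 the highest of their groups. Its difference was 6.69 for KD minus 36S and 4.79 for KD minus 36N.

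The RNA-binding proteins were Msi1, a translational regulator of neural and epithelial stem cells that binds Numb mRNA, and Rbm44, which in mouse testis is a component of the bridges between germ cells. Rbm44 had 446, 328 and 342 normalised counts in KD libraries, 0.491, 0.950 and 2.06 in 36N libraries and 3.97, 5.87 and 0 in 36S libraries. Its KD libraries stood far above a pair of overlapping groups near 0, with a difference of 6.83 against 36S and 7.48 against 36N. Msi1 had 54.1, 61.0 and 43.0 in KD libraries, 0, 0 and 1.88 in 36N libraries and 10.9, 1.81 and 7.18 in 36S libraries. Its 36S mean was 12.6% of the KD mean and its 36N mean 1.19%, although 36N library 6 and 36S library 2 had about the same value. The difference for Msi1 was 3.03 against 36S and 5.22 against 36N.

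Fam71b, a gene known for its expression in testis, had 101, 94.9 and 70.7 normalised counts in KD libraries, 0, 0.593 and 0.677 in 36N libraries and 0.734, 1.27 and 0 in 36S libraries. It was near 0 in all 6 other libraries. The difference was 5.82 against 36S and 6.00 against 36N. Postn encodes periostin, a secreted matrix protein that binds integrins and is made mainly by fibroblasts and bone-forming cells. It had 425, 106 and 154 normalised counts in KD libraries, 7.61, 4.42 and 6.76 in 36N libraries and 2.31, 2.98 and 3.07 in 36S libraries. KD library 7 stood apart, and the mean of KD was 228 ± 172 (SD, n = 3), with a ratio of 4.02 between its highest and lowest library, against 1.08 for Prdm16. All 36N libraries were above all 36S libraries for Postn, with a difference of 0.92 for 36N minus 36S, though at only a few normalised counts. The difference of KD was 5.67 against 36S and 4.75 against 36N.

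Hebp1 and Eml5 were expressed in every library. Hebp1, a cytosolic heme-binding protein from which a peptide that activates formyl peptide receptors is cut in humans, had 483, 352 and 519 normalised counts in KD libraries, 33.1, 16.2 and 33.7 in 36N libraries and 68.9, 51.5 and 46.9 in 36S libraries. All 36N libraries were below all 36S libraries, with a difference of -1.04 for 36N minus 36S. The KD difference was 2.99 against 36S and 4.03 against 36N. Eml5, a member of a family of microtubule-associated proteins, had 807, 856 and 620 normalised counts in KD libraries, 148, 151 and 133 in 36N libraries and 103, 191 and 179 in 36S libraries. Its 36N and 36S groups overlapped, and its difference of 2.30 against 36S and 2.38 against 36N was the smallest of the 8.

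The description of the set as genes that are switched on at low GFI1 therefore holds to different degrees. The 36S mean was 1.48% or less of the KD mean for Prdm16, Ikzf2, Rbm44, Fam71b and Postn, 12.6% for Msi1, 12.4% for Hebp1 and 20.7% for Eml5. For the 36N mean the share was 4.47% for Ikzf2, 6.12% for Hebp1 and 18.9% for Eml5. Between 36N and 36S, 6 of the 8 genes overlapped, and Postn was higher, at only a few normalised counts, and Hebp1 lower without overlap. Groups did not overlap for 26.9% of the 13137 genes that passed the filter. Of the 8 genes only 3, Ikzf2, Hebp1 and Eml5, passed it in this comparison. Within KD the genes did not keep a common order. Library 9 was the lowest of the 3 for Prdm16, Ikzf2, Fam71b, Msi1 and Eml5 but the highest for Hebp1, and library 7 was the highest for Rbm44, Fam71b and Postn.

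Markers of other cells also differed between the groups in these libraries. Ikzf2 is a gene of T cells, and T and NK cell markers rose in KD marrow against 36S in 8 of 16 tested genes, with 0 lower (limma-trend, Benjamini-Hochberg adjusted p under 0.05; 11.5% of all genes were called). Leaving out KD library 8 gave 4 calls and leaving out KD library 9 gave 3, and there were 2 with a filter of 50 normalised counts. Of the genes called, Cd3g and Gzma were below 10 normalised counts in every 36S library. They were therefore under the filter, and not tested against 36S, without any one KD library. Against 36N, 1 of 19 rose, but 6 without KD library 7 and 0 without KD library 9 or any one 36N library. The summed level of the 22 markers was 848 to 2346 normalised counts in KD, 516 to 823 in 36N and 276 to 462 in 36S. Cd3e, a subunit of the T cell receptor complex, had 49.8, 168 and 242 normalised counts in KD libraries 7, 8 and 9. Foxp3, the defining factor of regulatory T cells, had 10.5, 15.5 and 15.3 in KD libraries, 13.7, 13.7 and 20.3 in 36N libraries and 13.5, 9.40 and 16.9 in 36S libraries, and these groups overlapped. The part of T cells in the Ikzf2 level was not tested.

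For Postn the corresponding cells are stromal. Col1a1, the main collagen of fibroblasts and bone, had 9.85, 17.8 and 18.7 normalised counts in KD libraries, 17.4, 25.8 and 122 in 36N libraries and 23.5, 23.8 and 17.4 in 36S libraries. It was not higher in KD. Of 17 tested stroma and matrix genes, 4 rose in KD against 36S and 2 fell, and the list's median difference was -0.48. That count of 6 was 3 without 36S library 2 and 3 without KD library 9. Against 36N 2 of 18 rose and 1 fell, with a median of -0.74, and this count of 3 was 0 without KD library 9, 1 without 36N library 4 or 36N library 6 and 7 without KD library 8. Among them Col5a1, a chain of a fibrillar collagen, had 129, 65.2 and 103 normalised counts in KD libraries, against 8.46, 14.7 and 7.29 in 36S libraries, and rose by 3.17 (SE 0.39, adjusted p = 0.0012). Spp1, which encodes osteopontin, fell to 36.5 ± 9.19 in KD, against 112 ± 34.0 in 36S (SD, n = 3 each), a difference of -1.58 (adjusted p = 0.010), and was 47.4 ± 27.8 in 36N. Fn1, which encodes fibronectin, rose to 77540 ± 10136 in KD, against 31377 ± 7077 in 36N (difference 1.32, adjusted p = 0.014) and 20260 ± 11360 in 36S (difference 2.15, adjusted p = 0.014). It took most of the summed level of the 27 markers measured, which was 70641 to 89639 in KD, 27594 to 41912 in 36N and 10738 to 32529 in 36S. The sum of the 26 other markers measured was 4589 to 4824 in KD, 3677 to 4015 in 36N and 3007 to 3195 in 36S. Pecam1 alone took most of this smaller sum in 36N and 36S, with means of 2551 and 1975, so it says little of the other markers. The part of stromal cells in the Postn level was not tested.

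Among relatives and partners of the 8 genes, those that rose in KD marrow against both 36S and 36N included Ikzf3, Gata2 and Tgfbi. In the PRDM, Musashi and FAM71 lists limma-trend called no gene. In the PRDM family 0 of 7 tested genes were called in KD against 36S and 0 of 7 against 36N by limma-trend, with 1 and 3 at an unadjusted p under 0.05, and a fit without the trend also called 0 in both. The only such call in these comparisons with a library left out was 1 gene in KD against 36N without KD library 8. In the Ikaros family Ikzf3, which encodes the lymphoid factor Aiolos, rose. It had 192, 197 and 244 normalised counts in KD libraries, 22.2, 55.6 and 31.8 in 36N libraries and 63.1, 26.3 and 33.9 in 36S libraries, with no overlap of KD and the others. The difference was 2.42 against 36S (SE 0.32, adjusted p = 0.0017) and 2.59 against 36N (SE 0.33, adjusted p = 0.0019). It was the only 1 called of 3 tested relatives against 36S and of 4 against 36N, where 3.24% of all genes were called.

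Among blood stem cell regulators 2 of 20 tested genes rose and 3 fell in KD against 36S, and 2 of 18 rose and 0 fell against 36N. The 2 that rose against 36N were Gata2 and Hoxb4. Hoxb4 had 65.3 ± 12.9 normalised counts in KD, 4.78 ± 4.43 in 36N and 64.5 ± 6.30 in 36S (SD, n = 3 each). Its KD and 36S means were thus alike, and it fell in 36N against 36S (difference -4.03, limma, adjusted p = 0.021). Gata2, a transcription factor of stem and mast cell precursors, rose to 1086 ± 124 normalised counts in KD, against 302 ± 101 in 36N and 469 ± 65.6 in 36S (SD, n = 3 each), with log2 differences of 1.89 against 36N (limma, adjusted p = 0.0012) and 1.21 against 36S (adjusted p = 0.0013). Hlf, a factor of the most immature stem cells, fell to 4.16 ± 2.35 in KD, against 43.9 ± 17.5 in 36S (difference -3.13, adjusted p = 0.0055). Cdkn1c, an inhibitor of the cell cycle kept high in resting stem cells, fell to 9.53 ± 3.14 in KD, against 52.9 ± 12.7 in 36S (difference -2.38, adjusted p = 0.0053). In 36N Hlf averaged 18.7 and Cdkn1c 31.5 normalised counts, and neither was called between 36N and 36S (adjusted p = 0.20 and 0.30). Kit, the receptor of stem cell factor, had 383 ± 123 in KD, 343 ± 176 in 36N and 1097 ± 178 in 36S, and fell against 36S both in KD (difference -1.55, limma, adjusted p = 0.0027) and in 36N (difference -1.81, adjusted p = 0.023). Gata2 and Kit also stand in the list of mast cell markers. The list thus held genes that moved both ways, and its 5 calls against 36S became 3 without 36S library 2. Against 36N leaving out KD library 7 or KD library 9 turned the 2 calls into 1, and leaving out KD library 8 turned them into 5.

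Of the Musashi and stem cell RNA-binding protein list 0 of 13 tested genes were called in either comparison, with 5 at an unadjusted p under 0.05 against 36S and 2 against 36N, and 0 without the trend. Msi2, the close relative of Msi1 that acts in blood stem cells, had 214 ± 18.1 normalised counts in KD, 359 ± 107 in 36N and 331 ± 81.5 in 36S, with a difference of -0.60 against 36S (adjusted p = 0.089). It did not share the direction of Msi1. With 36S library 3 or KD library 8 left out, 1 gene of this list was called against 36S. Germ cell genes, relatives in function of Rbm44, were mostly under the filter, with 6 of 32 tested. None of them rose in KD, 2 fell against 36S and 0 of 5 were called against 36N (1 at an unadjusted p under 0.05, and 0 without the trend). Rnf17, which acts in germ cell piRNA biology, had 0.790 ± 0.724 normalised counts in KD, 1.24 ± 2.16 in 36N and 97.2 ± 11.6 in 36S (SD, n = 3 each), and fell against 36S by limma in KD (difference -5.86, adjusted p = 0.00018) and in 36N (difference -5.86, adjusted p = 0.0020). The germ cell count was 0 without 36S library 1 or 36S library 2 and 1 without 36S library 3, KD library 7 or KD library 9. Without any one 36S library Rnf17 was under the filter, which still asked for 3 libraries, so it was not tested there. In the FAM71 family 1 gene, Fam71e1, could be tested, and it was not called by limma-trend, nor at an unadjusted p under 0.05, nor without the trend.

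Periostin receptors and TGF-beta genes included 2 of 12 that rose against 36S and 2 of 11 against 36N, with 0 lower. Tgfbi, a secreted protein related to periostin, rose to 1629 ± 364 normalised counts in KD, against 836 ± 59.9 in 36N (difference 0.94, adjusted p = 0.019) and 732 ± 112 in 36S (difference 1.14, adjusted p = 0.0057; SD, n = 3 each). The count against 36S was 1 without 36S library 1, 36S library 2, KD library 7 or KD library 9, and that against 36N was 0 without 36N library 5, KD library 7 or KD library 9 and 1 without 36N library 4. Heme synthesis and binding genes included 4 of 19 that rose against 36S and 2 of 19 against 36N. These calls depended on the variance model, the scaling and single libraries. Without the trend limma called 0 in both comparisons, and with columns scaled to equal totals 2 against 36S and 0 against 36N. With a library left out, 0 were called against 36S without 36S library 2, KD library 7 or KD library 9, 1 without 36S library 1 or 36S library 3, and against 36N the count was 0 without any one of the 36N libraries, KD library 7 or KD library 9 and 5 without KD library 8. Fpr2, a formyl peptide receptor of neutrophils and monocytes, rose to 328 ± 86.8 normalised counts in KD, against 71.0 ± 12.8 in 36S (SD, n = 3 each; difference 2.17, adjusted p = 0.00072). In 36N it was 234 ± 66.5, and the difference of KD from 36N was 0.48 (adjusted p = 0.33). It was the 1 call of 2 tested receptors against 36S, with 2 calls without 36S library 1, and 0 of 2 were called against 36N, 0 at an unadjusted p under 0.05 and 0 without the trend. Among EML and microtubule-associated genes 1 of 17 rose and 1 fell against 36S. Their number was 0 after removing any one 36S library or KD library 9, 1 after removing KD library 7 and 3 after removing KD library 8. Against 36N 0 of 16 were called, with 2 at an unadjusted p under 0.05, 0 without the trend and 3 without KD library 8.

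Markers of other blood lineages differed between KD and the other groups as well. Monocyte and macrophage markers rose in 11 of 16 tested genes against 36S and in 4 of 16 against 36N, with 0 lower. Lyz2, lysozyme, reached 40601 ± 11931 normalised counts in KD, against 19876 ± 3999 in 36N and 10472 ± 936 in 36S, and Apoe 2881 ± 564 in KD, against 443 ± 45.4 in 36N and 804 ± 345 in 36S (SD, n = 3 each). Apoe was among the 4 calls against 36N, and Lyz2 was not. Of the same 16 markers, 5 rose and 0 fell in 36N against 36S, Lyz2 among them (difference 0.91, limma, adjusted p = 0.014). The count for KD against 36N was 9 without KD library 8 and 2 without KD library 7, KD library 9, 36N library 4 or 36N library 5. Eosinophil markers rose in 3 of 6 tested genes in both comparisons, among them Prg3, an eosinophil granule protein, at 304 ± 176 in KD, against 18.3 ± 9.50 in 36N and 24.1 ± 4.36 in 36S. Without 36S library 1, 5 rose against 36S. Neutrophil markers had 1 higher and 4 lower of 14 in both comparisons, with Camp, a granule peptide of maturing neutrophils, at 20.6 ± 9.12 in KD, against 676 ± 239 in 36N and 1042 ± 1248 in 36S. These 5 calls became 8 without 36S library 1 and 3 without 36S library 2 or KD library 9 in the comparison with 36S, and 9 without KD library 8 and 3 without KD library 9 or 36N library 4 in that with 36N. Of the mast cell and basophil markers 2 rose and 2 fell of 7 against 36S, and 3 rose of 6 against 36N. B and plasma cell markers fell in 2 of 9 against 36S and 2 of 8 against 36N, and erythroid markers in 1 of 5 and 1 of 7, the call against 36N being lost without KD library 7, KD library 9 or any one 36N library. Megakaryocyte markers had 0 calls of 5 against 36S and 0 of 4 against 36N by limma-trend, with 2 and 1 at an unadjusted p under 0.05, 1 and 0 without the trend, and 2 against 36S without KD library 8. Regulatory T cell markers had 1 call of 5 against 36S, Nrp1, a receptor also carried by myeloid cells. Against 36N it had 0 of 6, with 2 at an unadjusted p under 0.05, 0 without the trend and 1 without KD library 8 or 36N library 6. The part of these cells in the levels of the 8 genes was not tested.

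**Figure D2:**
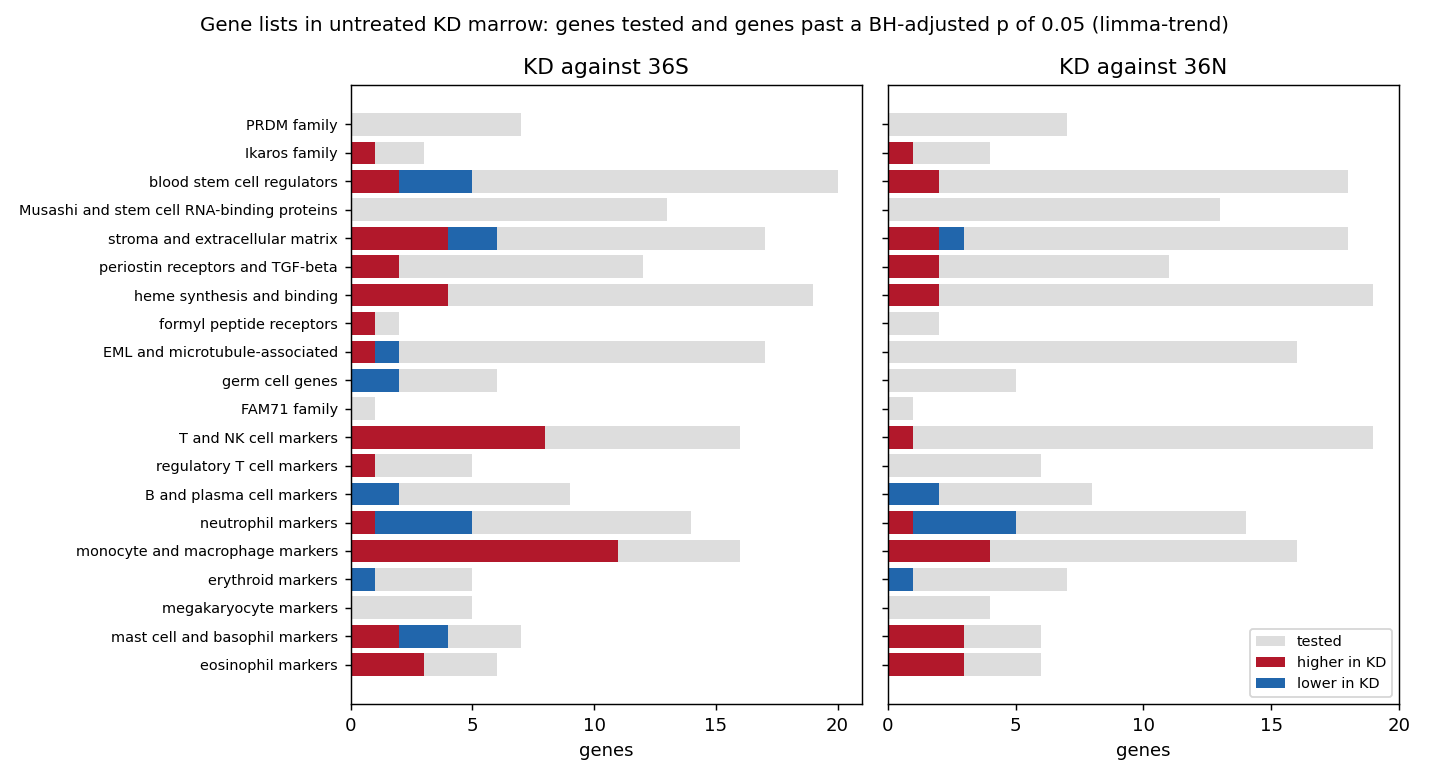
Number of genes tested (grey), higher in KD (red) and lower in KD (blue) at an adjusted p of 0.05 in each gene list, for KD against 36S on the left and KD against 36N on the right. Monocyte and macrophage markers show 11 of 16 genes higher in KD against 36S, and the PRDM, Musashi and FAM71 lists show no call in either panel.

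The chromosomal neighbours of the 8 genes were examined by taking the nearest protein-coding genes on each side, of which 31 are reported and 21 passed the filter. In KD against 36S 1 of them rose and 0 fell, which is 4.76% against 11.5% of all genes, and their median difference was 0.03. In KD against 36N 0 were called by limma-trend (4 at an unadjusted p under 0.05, 0 without the trend), against 3.24% of all genes, and the median was 0.14. Fam234b overlaps the upstream end of Hebp1 on the opposite strand and had 155 ± 11.4 normalised counts in KD, 71.0 ± 29.4 in 36N and 73.5 ± 14.8 in 36S (SD, n = 3 each), a difference of 1.08 for KD minus 36S (SE 0.22, adjusted p = 0.014). Whether reads were assigned by strand is not given in the sources used here, so reads of this pair cannot be told apart where they overlap. The other 20 tested neighbours differed by -0.82 to 0.38. Around Prdm16 and Ikzf2, 6 of the 8 neighbours were under the filter, among them Arhgef16 and Erbb4. The count of 1 became 0 without 36S library 2 or KD library 9 and 2 with no filter on low values, and against 36N it was 2 without KD library 8.

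**Figure D3:**
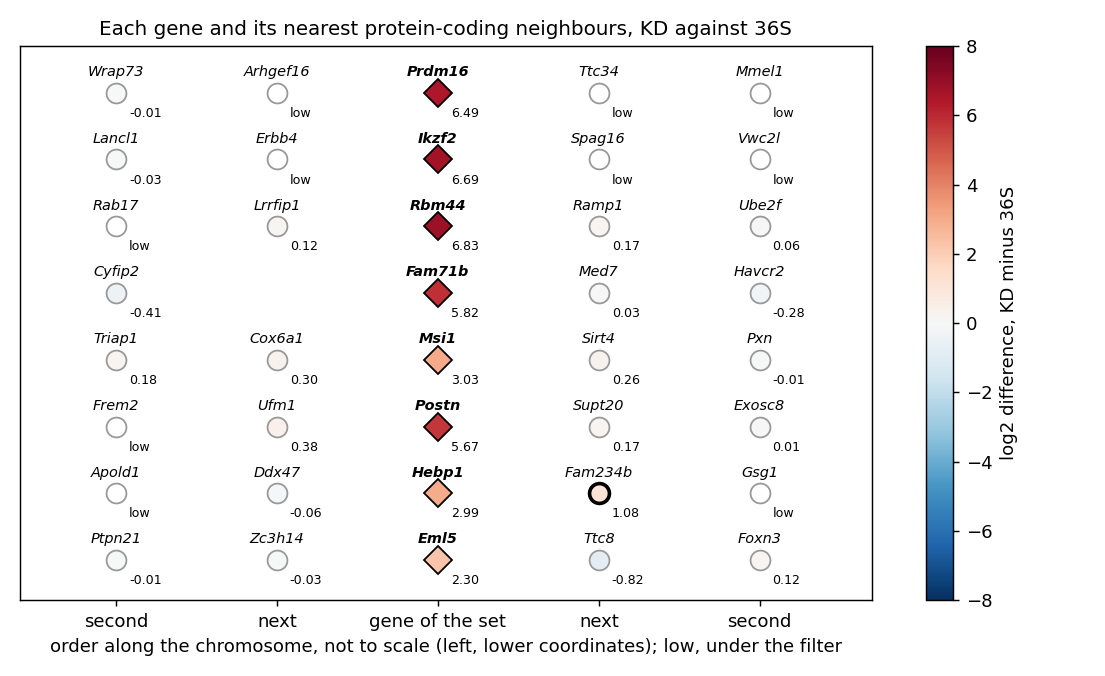
Log2 differences (colour and printed value) between KD and 36S for each of the 8 genes (diamonds) and its nearest protein-coding neighbours (circles), in chromosomal order and not to scale. A thick ring marks the neighbour that passed the test, which is Fam234b, an empty place marks a gene not reported, and "low" marks genes under the filter.

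Other genes shared the profile. Over the 9 untreated libraries and 12470 genes, 107 genes had a Pearson r above 0.9 with the mean standardised profile of the 8 genes, a description in which the points share their 3 groups. The most alike was Zfp462, a zinc finger protein gene, with an r of 0.991 and 36.5, 49.0 and 38.5 normalised counts in KD libraries, 2.39, 1.60 and 2.46 in 36N libraries and 3.69, 1.57 and 1.73 in 36S libraries. Next were Stx3, a membrane fusion protein (r 0.978; means of 344 in KD, 103 in 36N and 103 in 36S), Kcne3 (r 0.971) and Prg3 (r 0.968). For single members the closest was Wls for Prdm16 (r 0.978), Plau for Ikzf2 (r 0.970), Edem2 for Rbm44 (r 0.977), Zfp462 for Fam71b (r 0.980), Aldh3b1 for Msi1 (r 0.958), Pink1 for Postn (r 0.981), Papss2 for Hebp1 (r 0.971) and Stx3 for Eml5 (r 0.977). A profile can be alike with a much smaller change: Wls averaged 1044 normalised counts in KD, 800 in 36N and 833 in 36S.

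An almost exclusive presence in KD was rarer. Means of at most 10 normalised counts in 36N and 36S and at least 50 in KD were found for 14 of 18075 genes, 5 of them from the set (Rbm44, Prdm16, Postn, Fam71b and Msi1), while Ikzf2, Hebp1 and Eml5 fell outside these limits. Ikzf2 was outside by its 36N mean of 22.1 only, and Msi1 was just inside, with a KD mean of 52.7 and a 36S mean of 6.65. Of the 9 other genes 6 were unnamed gene models or pseudogenes, whose reads near-identical copies can share. The 3 named ones were Raet1d, a ligand of the NK cell receptor NKG2D, with 131, 85.0 and 146 in KD libraries, Gzma, a granzyme of T and NK cells, with 10.2, 54.0 and 85.9, and Zfp618, with 2.34, 5.69 and 328. Zfp618 was thus high in 1 KD library only. The mirror patterns, with 50 or more in 1 group and at most 10 in the others, were found for 7 genes in 36N and 8 genes in 36S. With limits of 5 and 50 the KD pattern had 8 genes, with 25 and 50 it had 32, and with 10 and 100 it had 11.

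Several of the 8 genes were also high in the 36N libraries labelled TMZ, which are not labelled as low in GFI1. What cells these libraries hold is in doubt, because their cell markers differ widely from those of untreated 36N marrow, although the labels give a treatment of 20 h. Below, "with TMZ" refers to the label. The 16 mast cell and basophil markers summed to 124460 to 327870 normalised counts in 36N cells with TMZ, against 856 to 2003 in untreated 36N cells. Tpsb2 and Mcpt4, mast cell proteases, were listed at 0 in all 3 untreated libraries and stood at 1340 to 8826 and 187 to 439 with TMZ. The 10 megakaryocyte markers summed to 30743 to 58688 with TMZ, against 243 to 475 untreated, and the 11 B and plasma cell markers measured summed to 247 to 556 with TMZ, against 9094 to 15838 untreated. The part of these cells in the values below was not tested. Of all 14390 genes tested, 69.7% were called between 36N cells with TMZ and untreated 36N cells.

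Of the 8 genes, 6 were higher in all 3 36N libraries with TMZ than in all 3 untreated ones. The share was 38.7% of the 14390 genes that passed the filter, which Fam71b, 1 of the 6, and Msi1 did not pass. The untreated 36N values were used to choose the genes, so these differences are a description. Ikzf2 had 968, 1506 and 1493 normalised counts with TMZ, against 114, 39.4 and 16.4 untreated, a log2 difference of 4.90. Its levels with TMZ were thus far above those of the 3 untreated 36N libraries, and they were not set beside untreated KD or 36S libraries. Cd3e was listed at 0 in all 3 of these libraries with TMZ, and Foxp3 had 0, 2.74 and 0.362 normalised counts in them. Prdm16 had 25.9, 58.1 and 19.6 with TMZ, against 0.943, 0 and 3.93 untreated, a difference of 3.91. Rbm44 had 27.7, 45.3 and 23.1 with TMZ, against 1.32, 2.55 and 5.56 untreated, a difference of 3.07. Both were highest in library 5 with TMZ, and so was Fam71b. Eml5 had 839, 578 and 869 with TMZ, against 146, 148 and 131 untreated, a difference of 2.40. Fam71b had 4.22, 9.53 and 3.70 with TMZ, against 0, 1.02 and 1.17 untreated, and Hebp1 had 191, 43.1 and 86.9 with TMZ, against 38.0, 18.6 and 38.9 untreated. These groups did not overlap but came close to each other, and those of Hebp1 overlapped with columns scaled to equal totals. Msi1 had 0, 0.792 and 46.8 with TMZ, against 0, 0 and 3.37 untreated, and Postn had 41.1, 7.11 and 0.890 with TMZ, against 12.9, 7.51 and 11.5 untreated. For this last pair the groups overlapped, and 1 library with TMZ held most of the signal. The median difference of the 8 genes was 2.18, against 0.06 over all genes tested, which became -0.09 with columns scaled to equal totals.

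**Figure D4:**
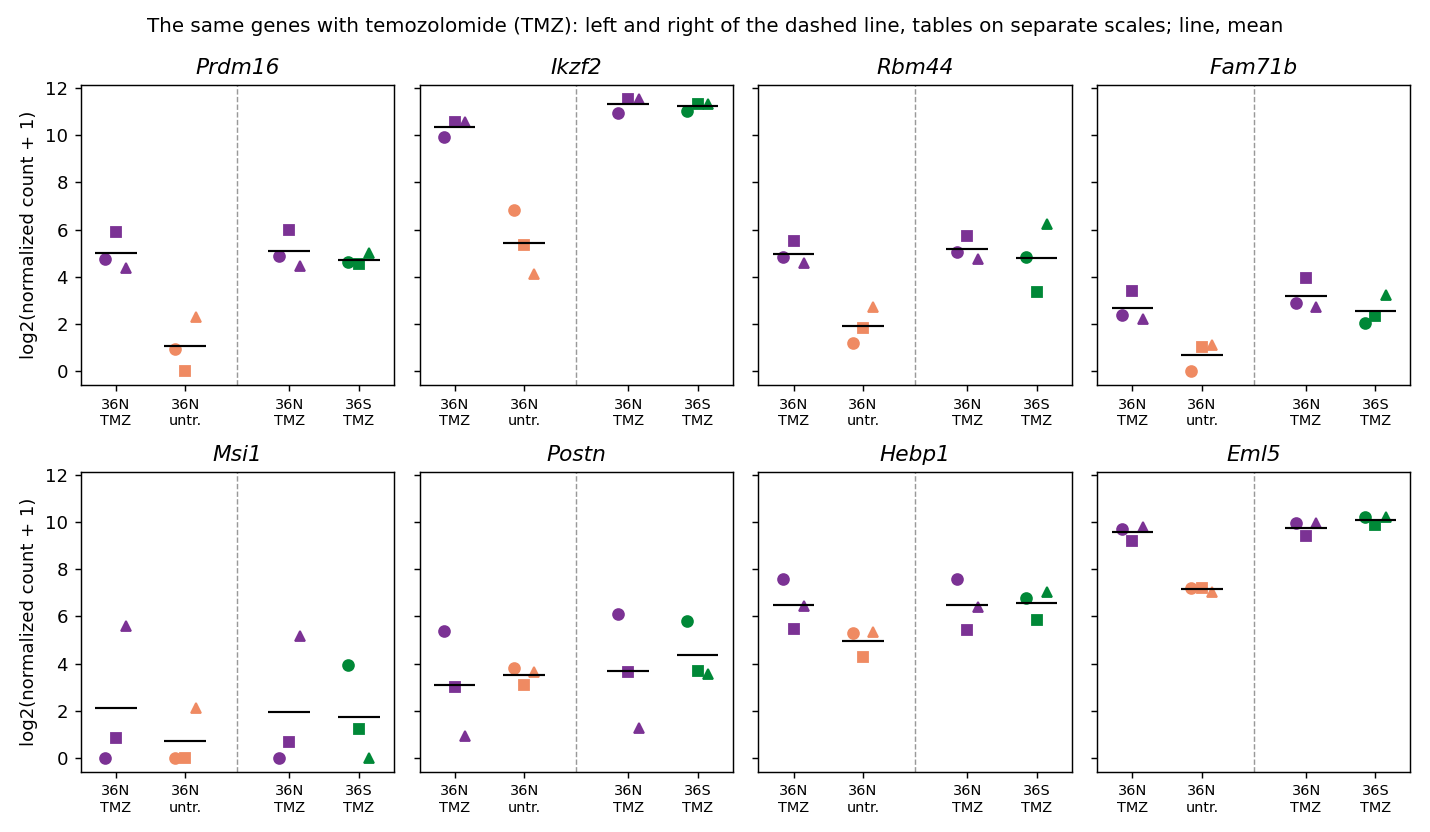
Log2(normalised count + 1) of the 8 genes (vertical axes), with 1 point per library and a line at the mean. Left of the dashed line are 36N cells with TMZ and untreated 36N cells, and right of it 36N and 36S cells with TMZ, on a separate scale. On the left Msi1 and Postn overlap between the groups and the other 6 genes do not, and on the right all 8 overlap.

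With TMZ, 36N and 36S cells could be compared in a table that did not serve to choose the genes. All 8 genes overlapped between the genotypes, while 4.76% of all 14246 genes had groups that did not overlap. Ikzf2 had 1939, 2989 and 2931 normalised counts in 36N cells, against 2045, 2570 and 2553 in 36S cells, a difference of 0.11 (SE 0.21, 95% interval -0.39 to 0.61). Prdm16 had 28.4, 62.9 and 20.99 in 36N cells, against 23.5, 22.5 and 31.1 in 36S cells, a difference of 0.39 (SE 0.48, interval -0.73 to 1.5). Both genes thus overlapped between the genotypes. Eml5 had 978, 668 and 993 in 36N cells, against 1174, 926 and 1176 in 36S cells, a difference of -0.33 (SE 0.21, interval -0.82 to 0.17). Rbm44 had 31.9, 51.7 and 26.1 in 36N cells, against 28.1, 9.36 and 73.7 in 36S cells, and Hebp1 had 188, 42.1 and 83.9 in 36N cells, against 110, 55.9 and 130 in 36S cells. Their intervals ran from -1.29 to 2.0 and from -1.42 to 1.25. Postn had 68.1, 11.7 and 1.44 in 36N cells, against 54.2, 12.0 and 10.9 in 36S cells, with an interval of -3.45 to 2.12, so that changes of several fold in either direction were not detectable at this spread.

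Fam71b and Msi1 were under the filter in that table. Fam71b had 6.46, 14.4 and 5.55 in 36N cells, against 3.13, 4.06 and 8.34 in 36S cells, and Msi1 had 0, 0.602 and 35.2 in 36N cells, against 14.4, 1.36 and 0 in 36S cells. For Msi1 a single library of each genotype held nearly all of the signal. Of the 6 genes tested, 0 passed with limma-trend, with an adjusted p of 0.9998 for each and none under 0.05 unadjusted. Over all 14246 genes 0 were called, which is 0% (191 at an unadjusted p under 0.05, and 0 also without the trend and with a robust variance). Values in 36S cells with and without TMZ were not set side by side because no table used here holds both.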

How the data were processed

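RNA sequencing of total bone marrow gave 15 libraries in 5 groups of 3, grouped by the sample titles. The deposited tables hold a normalised signal per gene, that is, counts the authors had normalised before deposit. The submitters' processing notes name Salmon, DESeq2 and the build mm10, but neither a version nor what each was used for. The settings of these tools were not analysed here. The untreated KD and 36N tables share identical 36S columns (largest difference 0) and were joined, while the other tables were used separately.

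Values were analysed as log2(value + 1). A gene was tested where 3 or more libraries of the comparison held a value of 10 or more. The test was limma-trend (limma 3.58.1, R 4.3.3), with Benjamini-Hochberg adjustment over all genes tested and a threshold of 0.05. The 8 genes and all gene lists were chosen with earlier results of these data known, so contrasts that chose the genes carry no p-value for them. Genes are named by fixed rules: the set itself, the nearest protein-coding neighbours, those of most similar profile, and up to 4 called genes per list (or the 2 lowest p-values where none passed); Cd3e, Foxp3, Col1a1, Tpsb2 and Mcpt4 were named as defining markers after their values were seen. Of the neighbours, 1 gene is not reported here and stays out of their counts. Of 18075 symbols, 17810 matched GENCODE M21. Alternatives were other pseudocounts, filters, scalings, variance models and leaving out each library with the filter unchanged. Same-numbered 36N libraries with and without TMZ had correlations of deviations of 0.019, 0.037 and 0.086, none over 0.1, and were not treated as pairs.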

Additional observations from a re-analysis of the deposited data

How the results depend on the processing

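Leaving out each library in turn gave 591 to 2051 called genes for KD against 36S (1503 with all libraries; lowest without 36S library 2, highest without KD library 8), 116 to 1986 for KD against 36N (425; lowest without KD library 9, highest without KD library 8), 188 to 508 for 36N against 36S untreated (599) and 8192 to 8901 for 36N cells with TMZ against untreated ones (10037). In the table with TMZ the count for 36N against 36S was 0 to 1 (0 with all libraries, 1 without 36S library 3). Without the trend limma called 203 genes for KD against 36N and 305 for 36N against 36S. A replicate block by library number called 9985 genes for TMZ in 36N, and 2 of 3 libraries were most alike to the library of the same number. Titles with TMZ repeat the untreated title of the same number with TMZ added, but do not say whether both came from the same mouse. Counts in gene lists also moved. Without the trend, KD against 36N had 0 calls in the periostin, erythroid and T cell lists (2, 1 and 1 with it), 1 of 2 among stem cell regulators, 2 of 4 among monocyte markers and 3 of 5 among neutrophil markers, and KD against 36S had 1 of 2 among periostin receptors and among germ cell genes. The single T cell call against 36N was also lost with a pseudocount of 0.5, without a filter, with a filter of 50 and with equal column totals. With a library left out the filter still asked for a value of 10 or more in 3 libraries. Genes at that level only in the group that lost a library then dropped out of the test, as Rnf17 did without a 36S library. Any other cause of these changes was not tested.

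For the 8 genes the log2 difference under the alternatives ran from 2.02 to 7.73 for KD against 36S and from 2.26 to 8.33 for KD against 36N, and the choice of the genes fixes the sign of both. It kept its sign in 76 of 80 alternative values for 36N against 36S untreated and 78 of 80 for 36N cells with and without TMZ. Between the genotypes with TMZ, 0 of the genes passed under each alternative that was run. Without single libraries the difference ranged from -0.0584 to 0.7115 for Prdm16, -0.3693 to 1.0557 for Rbm44, -1.8794 to 0.5316 for Postn and -0.6325 to 0.4326 for Hebp1. The 7 changes of sign were Prdm16 at -0.06 without 36N library 5, Rbm44 -0.37 without 36S library 2, Postn 0.0483 without 36S library 1 and 0.53 without 36N library 6, and Hebp1 0.0357 without 36S library 1, 0.15 without 36S library 3 and 0.43 without 36N library 5. The cause was not tested. Alternative values for other genes named as called were counted only where the gene passed the filter. Of these, 491 stayed past the threshold and 70 did not for KD against 36S, and 296 and 78 for KD against 36N. With unknown read depth, values of a few normalised counts carry no interval, and 3 libraries a group limit what a missing call can show.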
